A study of Mus musculus with 9 samples.

Results

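The 10 circadian clock genes Clock, Bmal1 (listed as Arntl in older annotations), Per1, Per2, Per3, Cry1, Cry2, Nr1d1, Nr1d2 and Dbp were examined in cultured adult mouse neural stem cells. They were chosen by name as the core of the clock, from the 55704 genes in the table. All 10 were detected in every library. RNA-seq covered 9 libraries in 3 groups of 3. The bFGF/EGF-treated NSCs were proliferating cells collected at day 0, the bFGF/BMP4-treated NSCs were cells taken through quiescence induction and collected at day 6, and the BMP4-treated NSCs were collected at day 6 without bFGF. Each factor was used at 20 ng/mL. All cells came from the subventricular zone of C57BL/6 mice aged 8 to 9 weeks, with 2 female and 2 male mice pooled in an isolation. They were passaged at least 3 times and plated as adherent cultures for 16 to 18 h before day 0. The proliferation medium was described with a B27 supplement lacking vitamin A and the other media with B27, so supplement, 6 days of culture and growth factor cannot be told apart in a comparison with bFGF/EGF. Each library was labelled a biological replicate, but nothing says whether replicates came from separate isolations, and p-values measure only the spread between these libraries.

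The mammalian clock is a loop of transcription and translation that gives cells a daily rhythm. CLOCK and BMAL1 form a dimer that binds E-box sequences and switches on Per, Cry, Nr1d1, Nr1d2 and Dbp. PER and CRY proteins then block the dimer. REV-ERBα and REV-ERBβ, the products of Nr1d1 and Nr1d2, repress Bmal1 through elements that the ROR receptors activate. DBP, TEF and HLF activate genes through the D-box, where NFIL3 represses. The subventricular zone is a site of adult neurogenesis whose stem cells move between quiescence and division. The hour of collection was not given in the sources used here and each group had 1 time point, so a higher mean level and another phase of the rhythm cannot be told apart. A bulk sample also averages over its cells, and fewer cells of a type and less RNA per cell cannot be told apart.

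The promoters that hold a clock element are shown first, because members act on each other partly through such elements. RefSeq promoter windows of 250 bases before and 50 bases after a start site were found for 9 of the 10 genes, 13 windows in all. Per2 had no entry. The table names build GRCm38.p6, and each window matched GRCm39 at 1 place, whose coordinates are given. Both strands were searched for the E-box CACGTG, the D-box (TTATGTAA or TTACGTAA), the ROR/REV-ERB element (TAGGTCA or TGGGTCA) and the cAMP response element TGACGTCA. A match was found in 4 windows, printed here 5′ to 3′ on the strand of the gene with the element in capitals. They belong to Bmal1 (chr7:112806468-112806767, plus strand), Per1 (chr11:68989525-68989824, plus strand), Per3 (chr4:151129073-151129372, minus strand) and Cry1 (chr10:85020869-85021168, minus strand).
Bmal1, ROR/REV-ERB element: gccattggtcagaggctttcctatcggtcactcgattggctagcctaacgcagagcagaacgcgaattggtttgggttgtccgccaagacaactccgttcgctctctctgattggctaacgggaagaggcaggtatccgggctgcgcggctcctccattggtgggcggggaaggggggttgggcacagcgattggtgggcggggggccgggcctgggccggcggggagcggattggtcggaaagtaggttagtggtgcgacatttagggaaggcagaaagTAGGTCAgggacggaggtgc
Per1, E-box: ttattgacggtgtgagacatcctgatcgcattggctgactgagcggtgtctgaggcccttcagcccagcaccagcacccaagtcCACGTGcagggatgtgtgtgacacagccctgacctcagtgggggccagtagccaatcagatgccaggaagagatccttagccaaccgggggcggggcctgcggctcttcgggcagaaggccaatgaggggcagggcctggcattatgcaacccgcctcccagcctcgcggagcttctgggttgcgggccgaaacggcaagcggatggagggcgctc
Per3, D-box: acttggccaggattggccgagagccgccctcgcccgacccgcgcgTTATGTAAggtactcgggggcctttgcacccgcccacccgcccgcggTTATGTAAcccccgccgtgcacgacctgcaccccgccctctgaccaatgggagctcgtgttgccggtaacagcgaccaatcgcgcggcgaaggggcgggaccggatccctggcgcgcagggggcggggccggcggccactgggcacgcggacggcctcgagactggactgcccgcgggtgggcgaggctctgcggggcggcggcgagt
Cry1, E-box: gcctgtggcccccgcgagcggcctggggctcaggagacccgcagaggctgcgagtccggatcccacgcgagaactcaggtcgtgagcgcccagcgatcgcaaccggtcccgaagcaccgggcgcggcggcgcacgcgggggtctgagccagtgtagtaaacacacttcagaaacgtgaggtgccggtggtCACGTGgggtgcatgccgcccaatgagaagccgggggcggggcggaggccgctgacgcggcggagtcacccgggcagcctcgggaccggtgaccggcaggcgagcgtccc

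Counted from the start site, the first base of the element lay at 31 inside the Bmal1 transcript, at -166 from the Per1 start site and at -60 from the Cry1 start site. Per3 held the D-box at -205 and again at -158. Among all 32851 windows in the table, 7.15% held the E-box, 6.45% the ROR/REV-ERB element, 1.06% the D-box and 1.79% the cAMP response element. No searched letters were present in the other 9 windows, which include 1 further window each for Bmal1 and Per1 (the former overlaps the printed one and ends before its element). A match describes the letters of a window and not binding in these cells. The search did not cover sequence outside the windows or other spellings of an element.

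**Figure D1:**
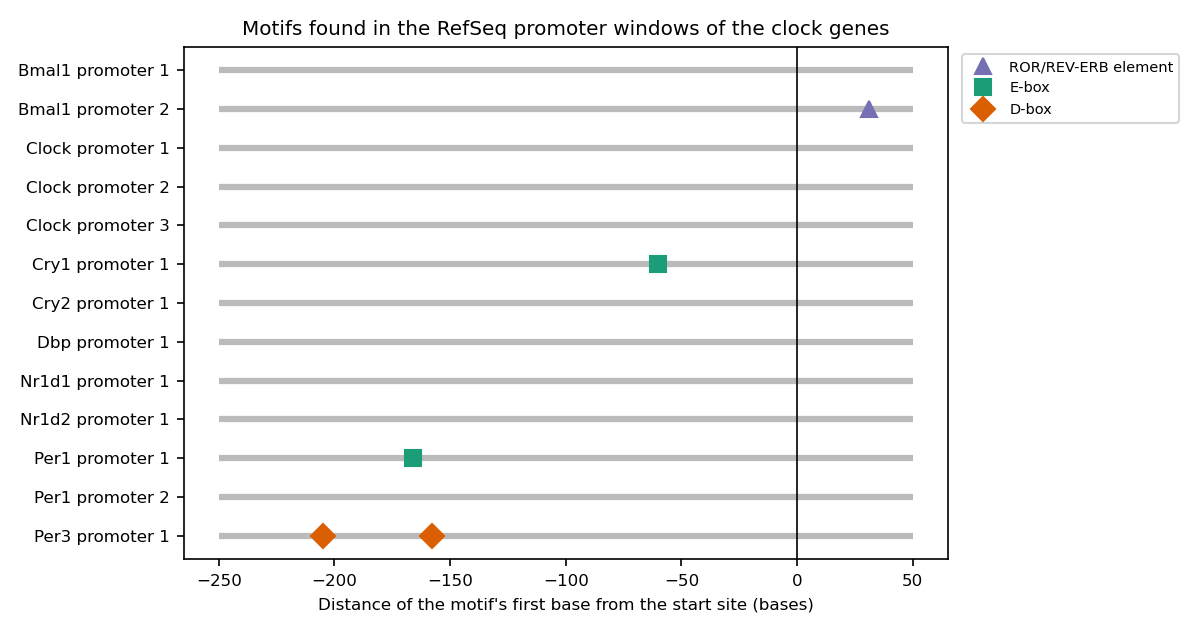
Positions of the searched elements in the promoter windows of the clock genes, in bases from the annotated start site. Each line is 1 window and each mark is the first base of an element; 4 of 13 windows carry a mark, with the Per3 window carrying 2 D-boxes.

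The deposited values were FPKM (fragment numbers divided by the length of the gene and the size of the library), so levels could be compared between genes per length. By the fragment numbers behind them, 15892854 to 17419822 fragments lay on genes in a library, and a clock gene had at least 145 fragments in each library. In the bFGF/EGF-treated NSCs, Cry1 stood highest with a mean of 12.5 FPKM, followed by Per1 at 11.8, Nr1d2 at 10.4 and Nr1d1 at 10.1. Per3 stood lowest there with 1.88 FPKM. In the bFGF/BMP4-treated NSCs the order began with Nr1d1 at 26.8 FPKM, Nr1d2 at 23.5 and Dbp at 19.9, and Per3 was again lowest with 5.46. In the BMP4-treated NSCs Nr1d1 (27.6 FPKM), Nr1d2 (20.7 FPKM) and Dbp (18.8 FPKM) led and Per2 was lowest with 3.09. In each group the libraries of neighbouring leading genes overlapped, so the order of those neighbours was not larger than the spread. In BMP4, the lowest Nr1d1 library (21.1 FPKM) lay above the highest Dbp library (20.2 FPKM). Dbp moved from the eighth place in bFGF/EGF to the third place in the other groups.

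The comparison of bFGF/BMP4-treated with bFGF/EGF-treated NSCs asks how the quiescence medium differs from proliferation. Of the 10 clock genes, 7 (70%) rose: Bmal1, Per3, Cry1, Cry2, Nr1d1, Nr1d2 and Dbp (limma, adjusted p of at most 0.05 over 20207 genes). None fell. Over all genes tested, 48.6% passed the same test, 25% higher and 23.6% lower. With a change of at least 2-fold, 4 clock genes were called (Per3, Nr1d1, Nr1d2 and Dbp), beside 30.6% of all genes. The median log2 fold change of the 10 genes was 0.76, beside 0.06 over all genes tested. Clock, Per1 and Per2 did not pass.

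The comparison of BMP4-treated with bFGF/EGF-treated NSCs asks how BMP4 without bFGF differs from proliferation. Here 6 clock genes rose (Bmal1, Per3, Cry2, Nr1d1, Nr1d2 and Dbp) and 1 fell, Per2. Over all genes, 54.9% were called, 29.6% higher and 25.3% lower. All 6 that rose reached 2-fold, Nr1d2 at the limit itself, beside 36.6% of all genes called at that size. The median log2 fold change was 1.07, beside 0.10 over all genes tested. The bFGF/EGF libraries serve both comparisons, so the calls in them are not independent.

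The comparison of BMP4-treated with bFGF/BMP4-treated NSCs, both at day 6, asks what bFGF adds beside BMP4. Only 2 of the 10 genes were called there, Bmal1 higher and Per2 lower in BMP4. This share lay near the background, in which 21.1% of all genes were called, 12.2% higher and 8.89% lower. No clock gene was called with at least 2-fold, beside 13.5% of all genes. The median log2 fold change was -0.06, beside 0.00 over all genes tested.

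**Figure D2:**
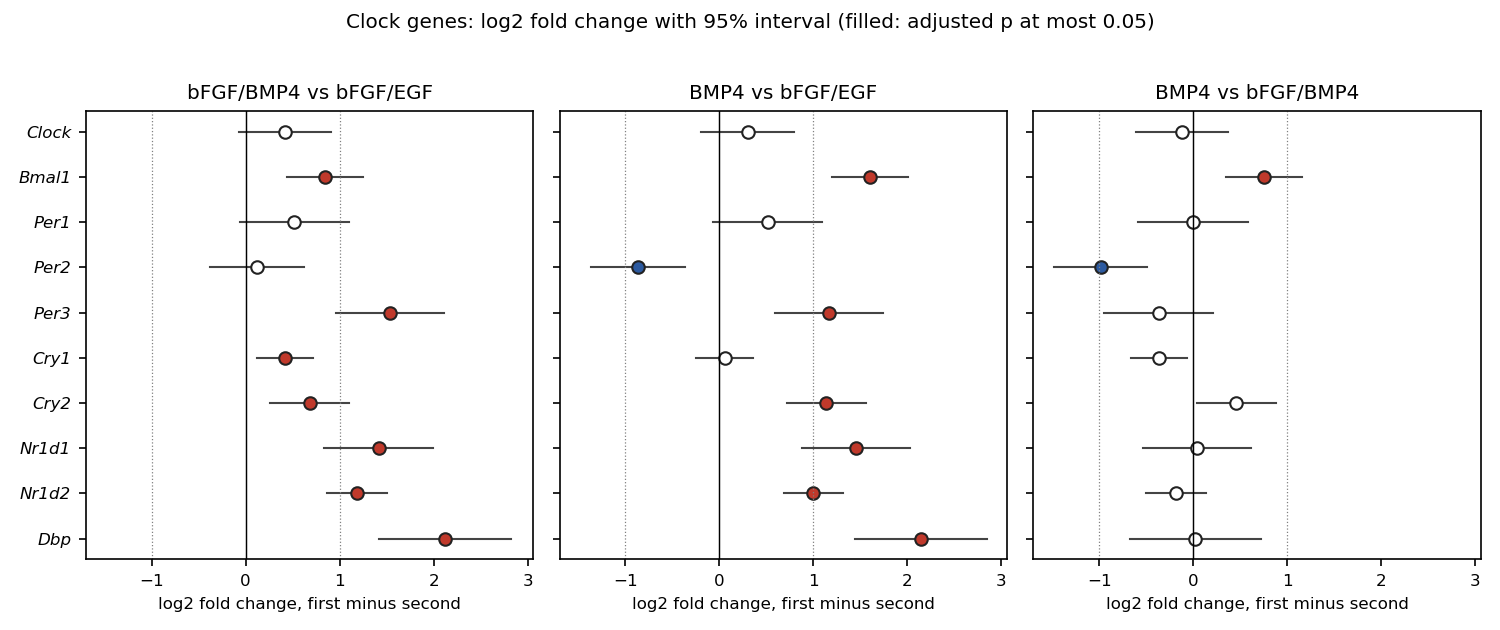
Log2 fold change of each clock gene on the log2(FPKM + 0.1) scale in the 3 comparisons, with 95% confidence intervals from limma. Dbp lies farthest to the right against bFGF/EGF, and in the comparison of the day 6 groups only the intervals of Bmal1 and Per2 belong to called genes.

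Bmal1 and Clock encode the activator of the loop, and their levels were unlike. Bmal1 (ENSMUSG00000055116, chr7:112806152-112914735, plus strand, GRCm39) had levels of 3.86, 3.45 and 2.90 FPKM in bFGF/EGF. The bFGF/BMP4 libraries gave 5.45, 6.50 and 6.54 FPKM, and the BMP4 libraries gave 8.61, 13.3 and 9.91. The 3 groups did not overlap, with bFGF/EGF lowest and BMP4 highest. The log2 fold change was 0.84 (SE 0.18, adjusted p = 0.00335) in bFGF/BMP4 and 1.60 (SE 0.18, adjusted p = 4.39e-05) in BMP4, both against bFGF/EGF. From bFGF/BMP4 to BMP4 it was 0.76 (SE 0.18, adjusted p = 0.0139), with BMP4 higher. This last call was lost without bFGF/BMP4 replicate 1 (0.67, adjusted p = 0.0508).

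Clock (ENSMUSG00000029238, chr5:76342860-76452846, minus strand) was at 6.66, 4.23 and 6.92 FPKM in bFGF/EGF, at 6.51, 8.90 and 8.16 in bFGF/BMP4 and at 8.32, 5.74 and 7.69 in BMP4. The groups overlapped in every comparison. The log2 difference from bFGF/EGF was 0.42 in bFGF/BMP4 (95% interval -0.07 to 0.91, adjusted p = 0.144) and 0.30 in BMP4 (-0.19 to 0.79, adjusted p = 0.276). BMP4 differed from bFGF/BMP4 by -0.12 (-0.61 to 0.37, adjusted p = 0.767). These intervals leave room for a difference of either sign. The level of Bmal1 relative to Clock, a ratio chosen after the values were seen and not tested, was 0.419 to 0.814 in the bFGF/EGF libraries, 0.730 to 0.838 in bFGF/BMP4 and 1.04 to 2.32 in BMP4.

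The Period genes encode repressors of the loop and did not move as a group. Per1 (ENSMUSG00000020893, chr11:68986035-69002300, plus strand), whose transcription also responds quickly to outside signals, was at 8.94, 16.2 and 10.2 FPKM in bFGF/EGF, at 20.9, 17.1 and 12.2 in bFGF/BMP4 and at 20.0, 16.3 and 13.3 in BMP4. The highest bFGF/EGF library, replicate 2, overlapped both other groups. The log2 difference from bFGF/EGF was 0.52 in bFGF/BMP4 (95% interval -0.06 to 1.10, adjusted p = 0.129) and 0.51 in BMP4 (-0.07 to 1.09, adjusted p = 0.122). Without that library both passed, at 0.77 (adjusted p = 0.0298) and 0.76 (adjusted p = 0.0264). No other omission of 1 library gave a call, and the values went down to 0.34 in both comparisons. BMP4 and bFGF/BMP4 differed by -0.003 (95% interval -0.58 to 0.58), with overlapping libraries.

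Per2 (ENSMUSG00000055866, chr1:91343700-91387069, minus strand), a partner of the CRY proteins, was at 4.57, 5.47 and 6.82 FPKM in bFGF/EGF, at 5.58, 6.83 and 5.77 in bFGF/BMP4 and at 2.77, 2.34 and 4.16 in BMP4. All 3 BMP4 libraries lay below the 6 others. The log2 fold change in BMP4 was -0.87 against bFGF/EGF (SE 0.22, adjusted p = 0.0078) and -0.99 against bFGF/BMP4 (SE 0.22, adjusted p = 0.0103). Bmal1 and Per2 were thus the called genes between the day 6 groups, in opposite directions. Between bFGF/BMP4 and bFGF/EGF the log2 difference of Per2 was 0.12 (95% interval -0.38 to 0.62, adjusted p = 0.692).

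Per3 (ENSMUSG00000028957, chr4:151081373-151129140, minus strand), the third Period gene and the carrier of the D-box pair printed earlier, was at 1.46, 1.45 and 2.72 FPKM in bFGF/EGF, at 6.43, 5.35 and 4.58 in bFGF/BMP4 and at 4.19, 3.39 and 5.09 in BMP4. Every day 6 library lay above every bFGF/EGF library. The log2 fold change was 1.54 (SE 0.26, adjusted p = 0.000766) in bFGF/BMP4 and 1.17 (SE 0.26, adjusted p = 0.00336) in BMP4. BMP4 differed from bFGF/BMP4 by -0.37 (95% interval -0.95 to 0.21, adjusted p = 0.381). The ratio of Per3 to Per2, chosen after the values were seen and not tested, was 0.266 to 0.399 in bFGF/EGF, 0.783 to 1.15 in bFGF/BMP4 and 1.22 to 1.52 in BMP4.

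The Cryptochrome genes encode the other repressors. Cry1 (ENSMUSG00000020038, chr10:84967560-85021252, minus strand) was at 13.4, 13.0 and 11.1 FPKM in bFGF/EGF, at 15.2, 17.3 and 17.7 in bFGF/BMP4 and at 12.1, 15.2 and 11.8 in BMP4. It rose in bFGF/BMP4 against bFGF/EGF by 0.42 on the log2 scale (SE 0.14, adjusted p = 0.0268). The call was lost without bFGF/EGF replicate 3 (adjusted p = 0.0867), bFGF/BMP4 replicate 2 (0.0835) or bFGF/BMP4 replicate 3 (0.0888). BMP4 and bFGF/EGF overlapped, with a log2 difference of 0.05 (95% interval -0.25 to 0.36, adjusted p = 0.76). BMP4 was at -0.37 against bFGF/BMP4 (adjusted p = 0.0884), and this value passed without BMP4 replicate 2, the highest of its group (-0.48, adjusted p = 0.0287). No other omission of 1 library gave a call there, and the value shrank to as little as -0.30.

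Cry2 (ENSMUSG00000068742, chr2:92233894-92264474, minus strand) was at 3.85, 5.20 and 4.78 FPKM in bFGF/EGF, at 9.58, 7.32 and 5.75 in bFGF/BMP4 and at 10.8, 10.2 and 9.64 in BMP4. The groups did not overlap. Its log2 fold change against bFGF/EGF was 0.68 in bFGF/BMP4 (SE 0.19, adjusted p = 0.0128) and 1.14 in BMP4 (SE 0.19, adjusted p = 0.000546). The first was lost without bFGF/EGF replicate 1 (0.56, adjusted p = 0.0522). Between the day 6 groups it was 0.46 (adjusted p = 0.122), and 0.64 without bFGF/BMP4 replicate 1 (adjusted p = 0.0301). No other omission of 1 library gave a call there, and the value went down to 0.28.

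**Figure D3:**
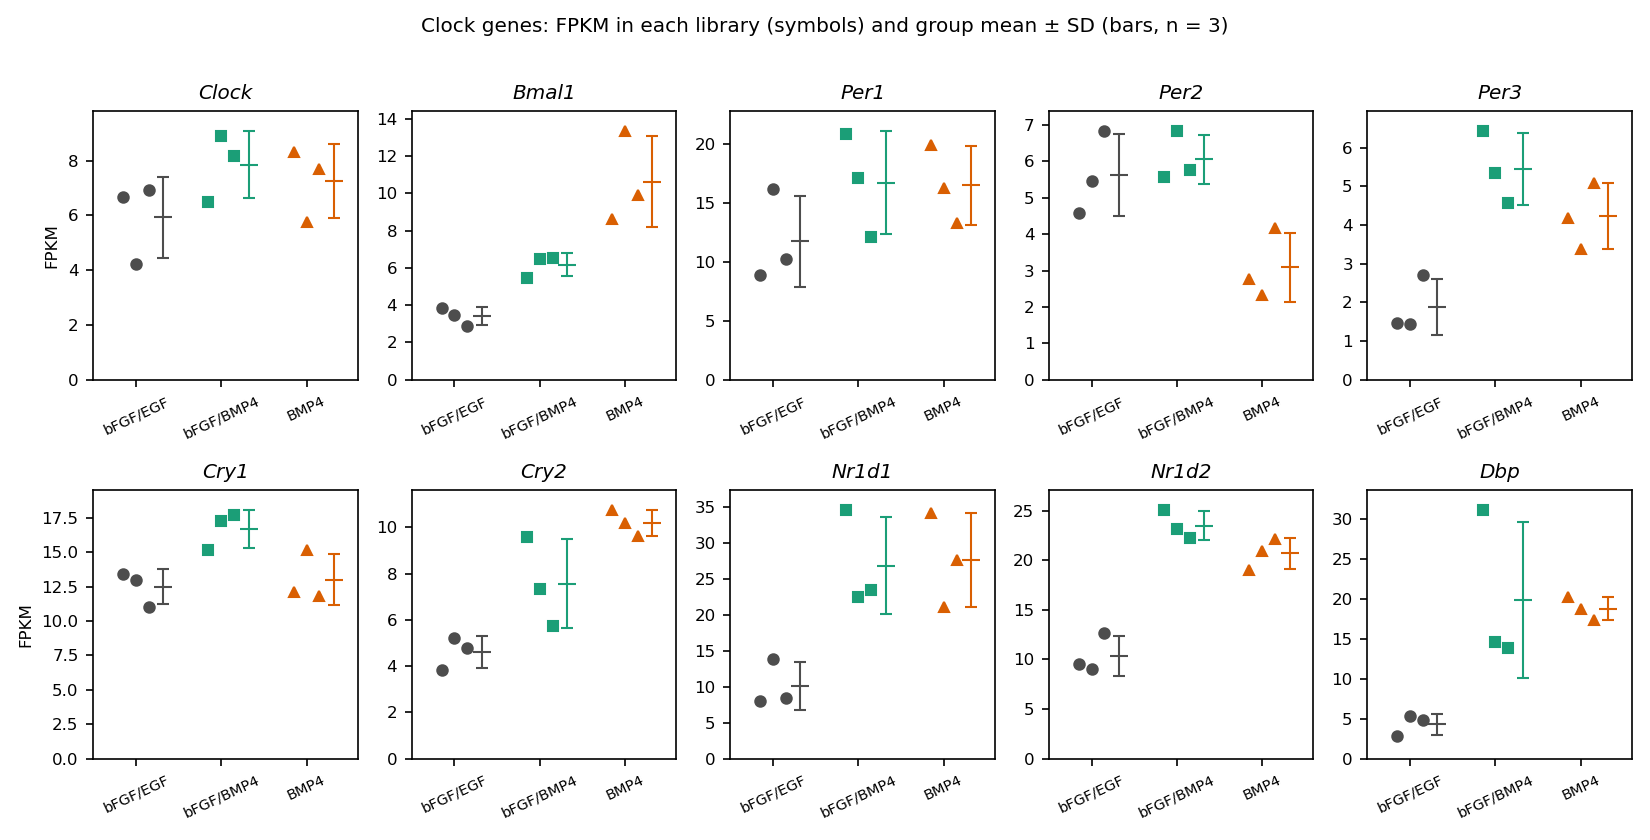
FPKM of the 10 clock genes in each of the 9 libraries. Points are libraries, horizontal bars are group means and vertical bars are 1 SD over 3 libraries; Bmal1 steps up over the 3 groups, Per2 is low in BMP4, and bFGF/BMP4 replicate 1 gives the high Dbp point at 31.2.

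The REV-ERB genes encode the repressors of Bmal1. Nr1d2 (ENSMUSG00000021775, chr14:4230545-4266624, plus strand) was at 9.49, 8.99 and 12.7 FPKM in bFGF/EGF, at 25.1, 23.1 and 22.3 in bFGF/BMP4 and at 19.0, 21.0 and 22.1 in BMP4. All 6 day 6 libraries lay above bFGF/EGF. The log2 fold change was 1.18 (SE 0.14, adjusted p = 8.34e-05) in bFGF/BMP4 and 1.00 (SE 0.14, adjusted p = 0.000193) in BMP4. The BMP4 libraries all lay below the bFGF/BMP4 libraries, by -0.18 on the log2 scale (95% interval -0.50 to 0.13, adjusted p = 0.424), which did not pass.

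Nr1d1 (ENSMUSG00000020889, chr11:98658752-98666188, minus strand) was at 7.99, 13.9 and 8.48 FPKM in bFGF/EGF, at 34.6, 22.4 and 23.5 in bFGF/BMP4 and at 34.2, 21.1 and 27.6 in BMP4. The day 6 groups lay above bFGF/EGF and overlapped each other. The log2 fold change was 1.41 (SE 0.26, adjusted p = 0.00124) in bFGF/BMP4 and 1.46 (SE 0.26, adjusted p = 0.000849) in BMP4, and 0.04 between the day 6 groups (95% interval -0.53 to 0.62, adjusted p = 0.942). The ratio of Nr1d1 to Bmal1, chosen after the values were seen and not tested, was 2.07 to 4.04 in bFGF/EGF, 3.45 to 6.34 in bFGF/BMP4 and 1.58 to 3.97 in BMP4.

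Nr1d1 shares exon bases on the other strand with Thra, the gene of thyroid hormone receptor alpha. In the GENCODE annotation the shared stretch covers 1694 of the 3242 exon bases of Nr1d1 (52.3%). Whether fragments were counted by strand was not given in the sources used here, and without strand the transcripts cannot be told apart in that stretch. Thra was at 20.7 to 27.1 FPKM in bFGF/EGF, 59.95 to 83.2 in bFGF/BMP4 and 121.8 to 129.7 in BMP4. Its log2 fold change was 1.51 (adjusted p = 2.74e-05) and 2.43 (adjusted p = 9.27e-07) against bFGF/EGF. It rose by a further 0.92 from bFGF/BMP4 to BMP4 (adjusted p = 0.0018), where the Nr1d1 difference was 0.04. The part of Thra in the Nr1d1 values was not tested. For Dbp the shared stretch with Sphk2 was 15.5% of exon bases, for Clock with Tmem165 11.9%, and for Cry2, Per3 and Bmal1 at most 3.4%. Sphk2 did not pass against bFGF/EGF, at 0.26 in bFGF/BMP4 (adjusted p = 0.199) and -0.21 in BMP4 (adjusted p = 0.276).

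Dbp (ENSMUSG00000059824, chr7:45354512-45359627, plus strand), the output factor that activates D-box genes, had the largest fold of the 10 against bFGF/EGF. It was at 2.85, 5.30 and 4.78 FPKM in bFGF/EGF, at 31.2, 14.6 and 13.9 in bFGF/BMP4 and at 20.2, 18.8 and 17.4 in BMP4. Every day 6 library lay above every bFGF/EGF library. The log2 fold change was 2.12 (SE 0.31, adjusted p = 0.000332) in bFGF/BMP4 and 2.15 (SE 0.31, adjusted p = 0.000239) in BMP4, which are 4.35-fold and 4.42-fold. Without bFGF/BMP4 replicate 1 the first was 1.75 (adjusted p = 0.000439). Between the day 6 groups it was 0.02 (95% interval -0.68 to 0.72, adjusted p = 0.979).

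No library held the highest value of its group for all 10 clock genes, but some genes went together. Per1, Cry2, Nr1d1 and Dbp were highest together in bFGF/EGF replicate 2, bFGF/BMP4 replicate 1 and BMP4 replicate 1. Bmal1 and Cry1 were highest together in bFGF/EGF replicate 1, bFGF/BMP4 replicate 3 and BMP4 replicate 2. The reason was not tested. bFGF/BMP4 replicate 1 held the highest value of its group for 6 of the 10 genes (Per1, Per3, Cry2, Nr1d1, Nr1d2 and Dbp) and the lowest for the other 4 (Clock, Bmal1, Per2 and Cry1). bFGF/EGF replicate 2 was highest for Per1, Cry2, Nr1d1 and Dbp and lowest for Clock, Per3 and Nr1d2. BMP4 replicate 2 was highest for Bmal1 and Cry1 and lowest for Clock, Per2, Per3 and Nr1d1. These are descriptions, chosen after the values were seen. The SD within groups, on the log2 scale, was largest for Dbp at 0.47 (72.1th percentile of all genes tested), then Per1 at 0.38 and Nr1d1 at 0.38. Cry1 at 0.16 and Nr1d2 at 0.17 were smallest, with a median of 0.29 over all genes. Without bFGF/BMP4 replicate 1, 7 clock genes were still called in bFGF/BMP4 against bFGF/EGF.

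For each clock gene, the protein-coding genes with the most similar profile over the 9 libraries were found among 11213 compared. The profile of Dbp was nearest to Armc7 (Pearson r = 0.992), that of Nr1d2 to Ccdc85a (0.995), that of Nr1d1 to Osbpl7 (0.983) and that of Bmal1 to 6330403K07Rik (0.991). Cry2 was nearest to Smim38 (0.993), Cry1 to Nipa2 (0.977) and Clock to Lats1 (0.987), a kinase of the Hippo pathway. The lowest best match was that of Per1, with Xpc (0.924). For Per2 it was Traf6 (0.964) and for Per3 Kctd21 (0.976). The 9 points share 3 groups and these values are descriptions, since any gene that differs between groups in the same order gives a high r.

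The list of other clock-loop genes held 22 genes named with the loop: further activators, E-box and D-box repressors, kinases, ubiquitin ligases and outputs. Timeless and Wee1 on this list are also tied to the cell cycle. Both fell by at least 2-fold in BMP4, against bFGF/EGF and against bFGF/BMP4, and are part of the counts below. All 22 were tested. In bFGF/BMP4 against bFGF/EGF, 8 rose and 4 fell (54.5% of the list, beside 48.6% of all genes tested), 8 of them by at least 2-fold (30.6% of all genes). In BMP4 against bFGF/EGF, 9 rose and 5 fell (63.6%, beside 54.9% of all genes), 11 of them by at least 2-fold (36.6% of all genes). From bFGF/BMP4 to BMP4, 3 rose and 6 fell (40.9%, beside 21.1% of all genes), 6 of them by at least 2-fold (13.5% of all genes). Their median log2 fold changes were 0.06, 0.00 and -0.21 in that order, beside 0.06, 0.10 and 0.00 over all genes.

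**Figure D4:**
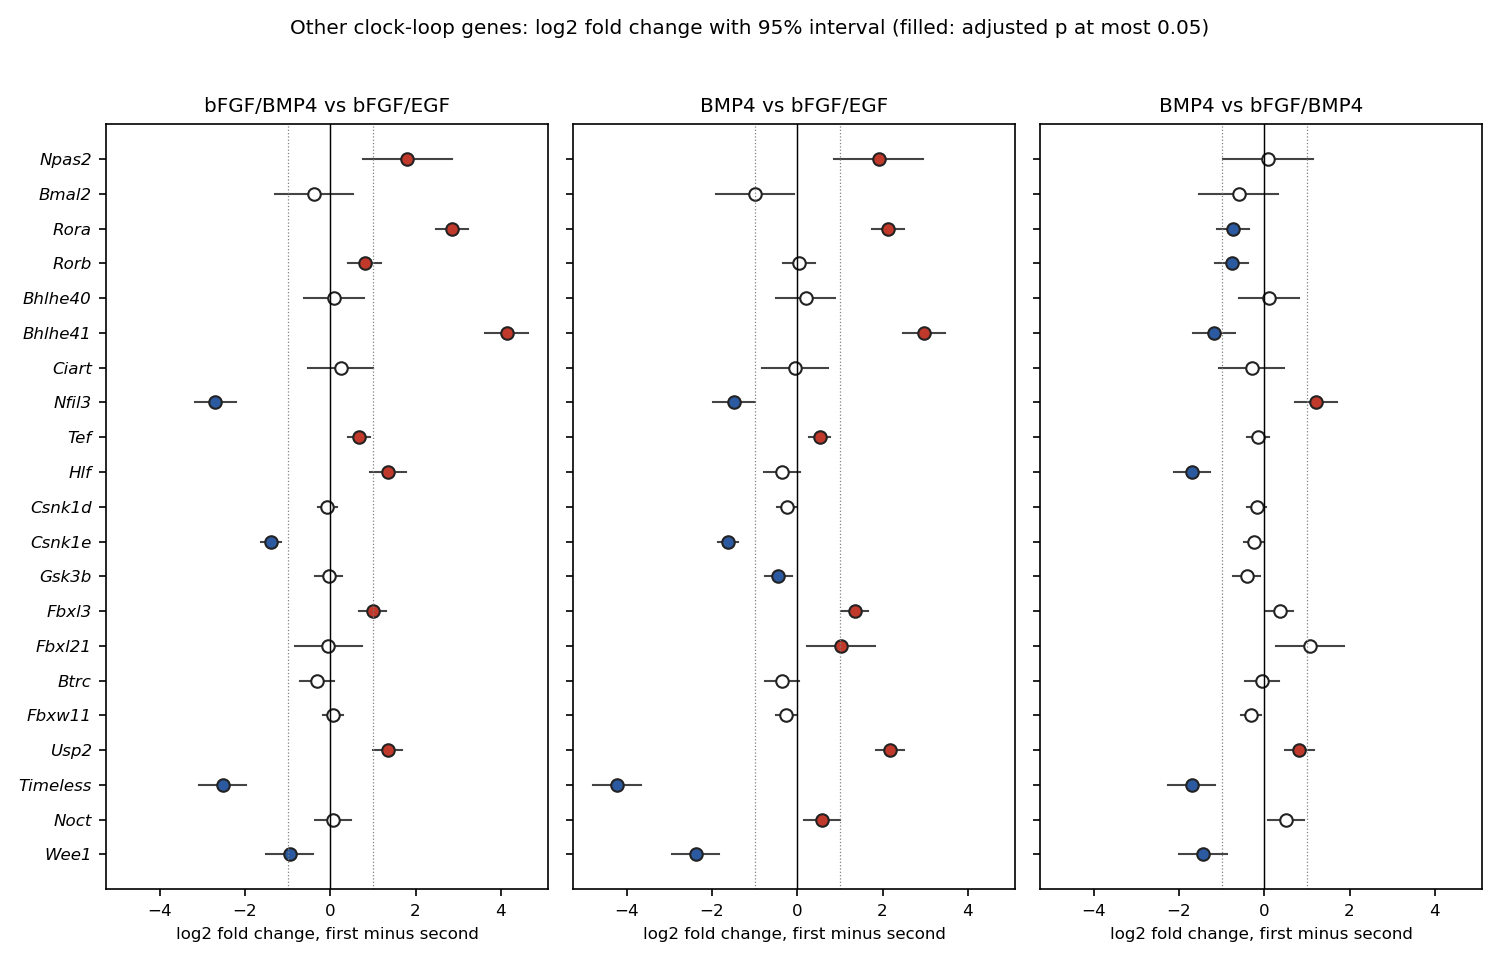
Log2 fold change of the other clock-loop genes reported here on the log2(FPKM + 0.1) scale in the 3 comparisons, with 95% confidence intervals from limma. Bhlhe41 and Rora lie far to the right against bFGF/EGF, and Timeless and Nfil3 to the left.

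Bhlhe41 encodes DEC2, a repressor that competes at the E-box. It was at 0.972, 1.85 and 1.49 FPKM in bFGF/EGF, at 27.1, 27.5 and 24.1 in bFGF/BMP4 and at 9.29, 14.1 and 11.9 in BMP4. Its log2 fold change against bFGF/EGF was 4.14 in bFGF/BMP4 (SE 0.22, adjusted p = 5.29e-07) and 2.97 in BMP4 (SE 0.22, adjusted p = 2.86e-06). With a pseudocount of 1 in place of 0.1 the first was 3.50. BMP4 lay below bFGF/BMP4 by -1.17 (adjusted p = 0.00396). Its paralog Bhlhe40, which encodes DEC1, did not pass, with log2 differences of 0.09, 0.20 and 0.11 in the 3 comparisons.

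The ROR receptors act on the same elements as the REV-ERBs, as activators. Rora was at 2.37, 1.89 and 2.50 FPKM in bFGF/EGF, at 18.7, 18.3 and 13.9 in bFGF/BMP4 and at 10.9, 8.52 and 11.1 in BMP4. Its log2 fold change in bFGF/BMP4 was 2.86 (SE 0.17, adjusted p = 9.41e-07), in BMP4 2.12 (adjusted p = 4.26e-06), and between the day 6 groups -0.73 (adjusted p = 0.0115, or 0.0519 without bFGF/BMP4 replicate 2). Rorb, another ROR gene, was at 4.03 to 6.10 FPKM in bFGF/EGF, 7.88 to 9.35 in bFGF/BMP4 and 4.58 to 5.88 in BMP4. It rose by 0.81 in bFGF/BMP4 (adjusted p = 0.00297) but differed by 0.05 in BMP4 (adjusted p = 0.836), both against bFGF/EGF. Between the day 6 groups Rorb was at -0.76 (adjusted p = 0.00971). The ratio of Rora to Nr1d1, chosen after the values were seen and not tested, was 0.136 to 0.297 in bFGF/EGF, 0.541 to 0.816 in bFGF/BMP4 and 0.317 to 0.405 in BMP4.

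The D-box factors moved in different ways. Nfil3, the D-box repressor, was at 10.3, 13.1 and 8.41 FPKM in bFGF/EGF, at 1.17, 1.54 and 1.98 in bFGF/BMP4 and at 3.25, 3.90 and 3.89 in BMP4. It fell by 2.69 on the log2 scale in bFGF/BMP4 (SE 0.22, adjusted p = 7.13e-06) and by 1.48 in BMP4 (SE 0.22, adjusted p = 0.000253). Hlf, a D-box activator, was at 10.4, 8.87 and 8.30 FPKM in bFGF/EGF, at 27.8, 21.9 and 21.2 in bFGF/BMP4 and at 5.53, 7.22 and 9.15 in BMP4. It rose by 1.35 in bFGF/BMP4 against bFGF/EGF (adjusted p = 0.000238), while BMP4 differed from bFGF/EGF by -0.35 (adjusted p = 0.142, or 0.0383 without BMP4 replicate 3). BMP4 was below bFGF/BMP4 by -1.70 (SE 0.19, adjusted p = 0.00016), a comparison in which Dbp differed by 0.02. Tef, another D-box activator, was at 18.3 to 22.95 FPKM in bFGF/EGF, 31.0 to 34.2 in bFGF/BMP4 and 27.6 to 30.5 in BMP4. Against bFGF/EGF it rose by 0.68 (adjusted p = 0.000693) and 0.53 (adjusted p = 0.0026) in that order. Between the day 6 groups Tef differed by -0.15 (adjusted p = 0.415). The ratio of Dbp to Nfil3, which leaves out Tef and Hlf, was 0.278 to 0.569 in bFGF/EGF, 6.999 to 26.7 in bFGF/BMP4 and 4.48 to 6.22 in BMP4. It was chosen after the values were seen and was not tested.

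Usp2, an enzyme that removes ubiquitin and is itself a rhythmic gene in many tissues, was at 4.33 to 6.46 FPKM in bFGF/EGF, 13.4 to 14.6 in bFGF/BMP4 and 22.9 to 27.1 in BMP4. It rose by 2.17 in BMP4 against bFGF/EGF (SE 0.15, adjusted p = 1.66e-06), and the 3 groups did not overlap. Timeless, which in mammals works at the replication fork, and Wee1, the kinase that restrains entry into mitosis, are tied to the cell cycle. Timeless was at 10.1 to 16.8 FPKM in bFGF/EGF, 1.60 to 2.79 in bFGF/BMP4 and 0.545 to 0.694 in BMP4. It fell by 4.22 in BMP4 (SE 0.25, adjusted p = 6.51e-07) and by 2.52 in bFGF/BMP4 (SE 0.25, adjusted p = 2.49e-05). With a pseudocount of 1 the BMP4 value was -3.15. Wee1 fell by 2.38 in BMP4 against bFGF/EGF (SE 0.25, adjusted p = 2.46e-05). Between the day 6 groups BMP4 was lower for Timeless by -1.70 (adjusted p = 0.000852, or -1.01 with a pseudocount of 1) and for Wee1 by -1.43 (adjusted p = 0.00231).

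Npas2 and Csnk1e were chosen after their values were seen. Npas2, a paralog of Clock that can pair with BMAL1, was at 0.209 to 0.555 FPKM in bFGF/EGF, 0.795 to 2.66 in bFGF/BMP4 and 0.936 to 1.95 in BMP4. It rose against bFGF/EGF by 1.81 (adjusted p = 0.00947) and 1.91 (adjusted p = 0.00622) in that order, with bFGF/BMP4 replicate 1 highest, and over the other settings the values went down to 0.85 and 0.88. Csnk1e, a kinase that marks PER proteins for degradation, was at 24.3 to 27.5 FPKM in bFGF/EGF, 8.93 to 10.2 in bFGF/BMP4 and 7.94 to 8.40 in BMP4. It fell by 1.38 (adjusted p = 4.82e-06) and 1.62 (adjusted p = 1.2e-06) against bFGF/EGF.

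**Figure D5:**
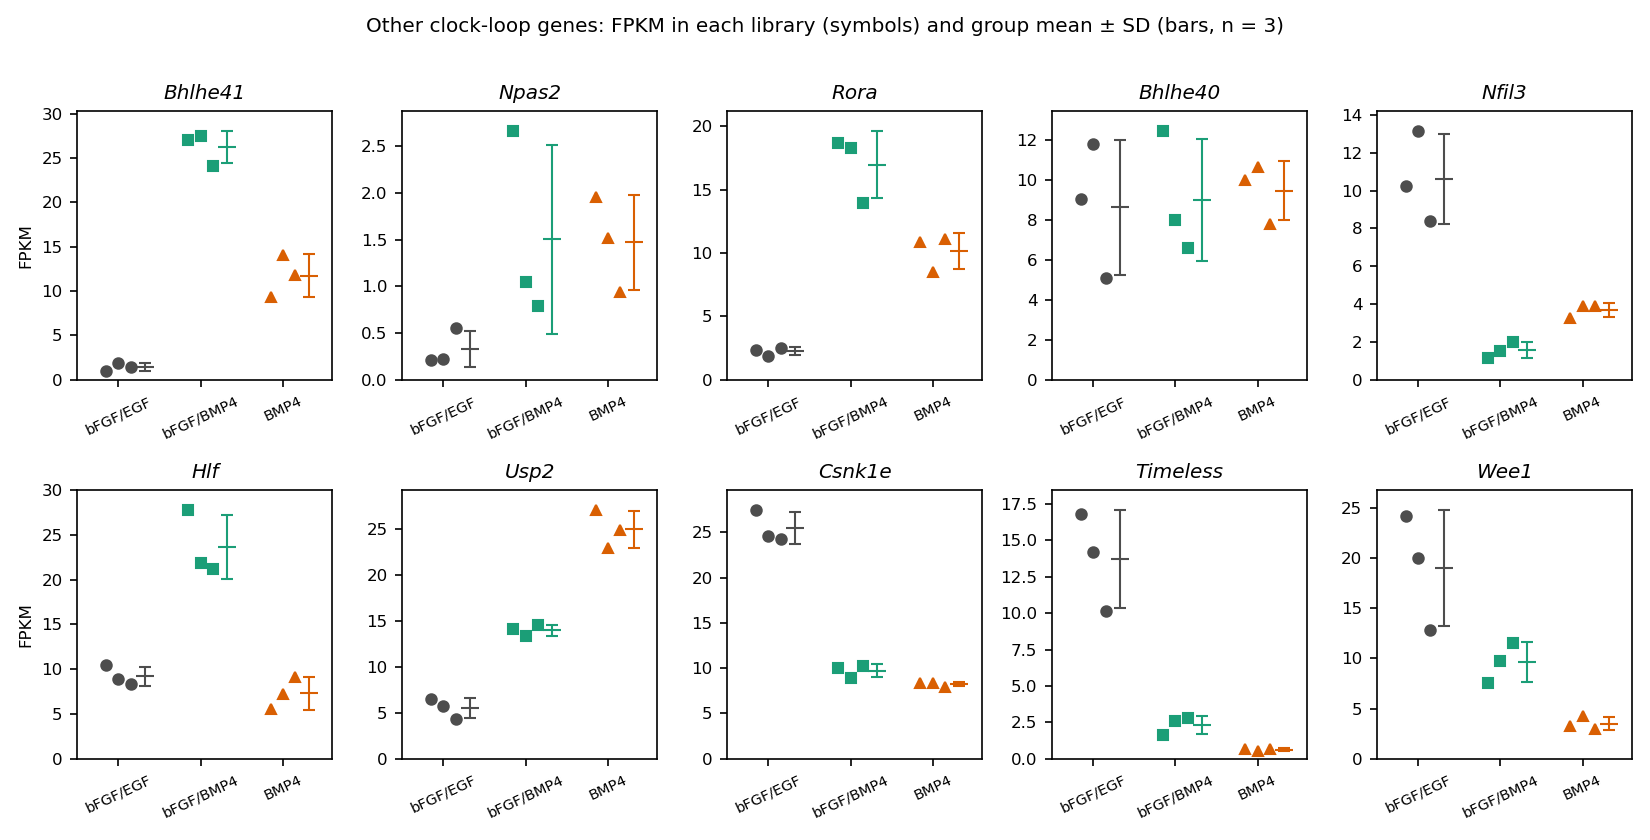
FPKM of 10 other clock-loop genes in each of the 9 libraries, drawn as for the clock genes, with points as libraries and bars as the mean and 1 SD over 3 libraries. Bhlhe41, Rora and Hlf are highest in bFGF/BMP4, Usp2 steps up over the 3 groups and Timeless steps down.

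Markers of proliferation moved with these groups. The sum of Mki67, Top2a, Cdk1 and Ccnb1 was 115 to 244 FPKM in bFGF/EGF, 30.2 to 51.3 in bFGF/BMP4 and 6.81 to 7.83 in BMP4. Of the neural stem cell and astroglia markers, Sox2 was at 121.3 to 202.1 FPKM in all libraries, Nes at 144.6 to 157.3 in bFGF/EGF against 2.96 to 20.7 elsewhere, and Gfap at 0.0600 to 0.134, 16.8 to 21.6 and 2181 to 3038 in bFGF/EGF, bFGF/BMP4 and BMP4. Of the oligodendrocyte markers, Mog and Mag were at most 0.115 FPKM in every library, and Mbp at most 0.321. These do not stand for the whole list, in which not every marker was this low. Some listed markers of other cells were higher in BMP4: Dlx2, listed for neuroblasts, reached 22.1 FPKM and Foxj1, listed for ependyma, 61.2 there. The other neuroblast marker, Dcx, was at 1.99, 0.342 and 0.384 FPKM in BMP4 replicates 1, 2 and 3. In the other groups Dcx was at most 0.233. Of the other ependyma markers, Ccdc153 was at most 0.849 in every library and Tmem212 was at 0 everywhere. The paper also reports higher Foxj1 in BMP4-treated NSCs, whose cilia it describes as unlike those of ependymal cells. The summed neuron markers were 10.4 to 12.8 FPKM in bFGF/EGF, 2.97 to 4.01 in bFGF/BMP4 and 6.27 to 9.73 in BMP4, and the OPC markers 11.7 to 16.6, 3.41 to 4.38 and 2.20 to 4.35, with Sox10 at 0 in both BMP4 groups. Microglia, endothelium and mural markers each summed to at most 1.77 FPKM in a library, with Cldn5 at 0 everywhere. The part of these markers in the clock gene values was not tested.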

How the data were processed

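RNA-seq of 9 libraries of mouse NSCs was used, 3 each of bFGF/EGF (day 0), bFGF/BMP4 (day 6) and BMP4 (day 6), grouped by their labels. Per the labels' processing notes, the authors used fastp 0.19.7, HISAT2 2.0.5 with mm39 and featureCounts 1.5.0-p3, and they deposited FPKM values for 55704 genes. The paper's own differential expression used DESeq2. The annotation release, the FPKM program and strand use are not given in the sources used here. FPKM divides by gene length and library size, so it carries relative levels only.

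The members and gene lists were chosen with earlier results of these data known. Genes were named through GENCODE vM39 (54749 of 55414 Ensembl identifiers found). limma 3.58.1 in R 4.3.3, with a trend, was fitted to log2(FPKM + 0.1) over all libraries for the 20207 genes averaging 0.1 FPKM or more, with Benjamini-Hochberg adjustment over all of them and a threshold of 0.05, and fold changes are on that scale, which understates low genes. Calls with at least 2-fold are counted beside them. Whole fragment numbers were rebuilt from FPKM for 30860 of 30860 genes above 0, giving 15892854 to 17419822 fragments per library. For genes above 0 in at most 2 libraries the smallest fitting whole numbers were taken, so their true numbers may be larger. The rebuilt numbers served the depth and limma-voom.

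Named genes were all 10 clock genes, of the other clock-loop genes at most the 4 largest changes per comparison called with at least 2-fold, genes overlapping a member, the 3 most correlated protein-coding genes per member averaging 1 FPKM or more (the first is printed), and Mki67. Values of 1 other clock-loop gene and 1 cell type marker are not reported here, though the list counts include them. Bhlhe40, Npas2, Csnk1e, Tef, Rorb and values of named genes in further comparisons were added after values were seen. Sequences were read and figures drawn in Python 3.11.15 (matplotlib 3.10.9, numpy 2.4.6, pandas 2.3.3).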

Additional observations from a re-analysis of the deposited data

How the results depend on the processing

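Other settings were tried one at a time: limma-voom on the rebuilt fragments, scaling by TPM, by median ratios or by quantiles, a pseudocount of 1, a filter at a mean of 1 FPKM or none, the replicate block, a fit without the uninvolved group, and the omission of each library. Every count of calls stayed within 1.5 times its value under all of them. For the clock genes, the settings other than leaving out a library gave 270 log2 fold changes, of which 268 kept their call, and the exceptions were Cry1 in BMP4 against bFGF/BMP4 on the TPM scale (-0.44, adjusted p = 0.0121) and after quantile normalization (-0.38, adjusted p = 0.0356). The cause was not tested. Of 270 values with 1 library left out, 261 kept their call, 5 lost it, 4 gained it and 0 of the called values changed sign. The number of clock genes called then ranged from 6 to 8 in bFGF/BMP4 against bFGF/EGF, 7 to 8 in BMP4 against bFGF/EGF and 2 to 3 between the day 6 groups. Nr1d2 in BMP4 against bFGF/EGF lies at the limit of 2-fold, with log2 values on either side of 1 (0.92 on the TPM scale, 1.05 after quantile normalization). Quantile normalization moved the median of all genes in that comparison from 0.10 to -0.01. The clock genes did not all move with the median: Nr1d2 went from 1.00 to 1.05 and Per3 from 1.17 to 1.03. Among the other clock-loop genes, a pseudocount of 1 shrank the log2 fold change of some genes with low libraries by over 1.5 times in fold. Timeless in BMP4 went from -4.22 to -3.15 against bFGF/EGF and from -1.70 to -1.01 against bFGF/BMP4. Bhlhe41 in bFGF/BMP4 against bFGF/EGF went from 4.14 to 3.50. Npas2 against bFGF/EGF went from 1.81 in bFGF/BMP4 and 1.91 in BMP4 to as low as 0.85 and 0.88 over the settings. The calls of these genes in these comparisons were kept.

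Whether replicates with the same number share an isolation or a batch was not given. The correlations of their deviations from the group means were -0.084 to 0.125, beside -0.154 to 0.081 for pairs with different numbers. Not every library correlated best with its own number. With 3 libraries per group these values cannot settle whether the numbers are a pairing. With a replicate block, 7, 7 and 2 clock genes were called in the order of the report, and no clock gene changed its call. A clock gene had at least 145 fragments in each library, and 3 libraries at 1 time point per group cannot show a rhythm.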
